A study of Mus musculus with 19 samples.

Results

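The response of NIH3T3 cells to 1 h of fibroblast growth factor (FGF) with the kinase MEK inhibited was measured as the difference between 1 array of inhibited cells and 3 arrays of quiescent cells. These are 4 of the 19 Affymetrix arrays of the series, chosen by their labels and not by any measured value. NIH3T3 is an established line of mouse embryonic fibroblasts. The inhibited sample, FGF 1 h + U0126, was given the MEK inhibitor U0126 at 20 µM, starting 0.5 h before basic FGF at 50 ng/ml, and FGF then acted for 1 h. The sample FGF 1 h received the same dose of FGF without the inhibitor, also on 1 array. The quiescent samples, at 0 h, received neither. All cells had first been held for 48 h in medium with 0.1% serum. The quiescent arrays are numbered 1a and 1b (experiment 1) and 2 (experiment 2), and both 1 h arrays belong to experiment 1. The study also holds later FGF samples, of which those at 4, 7 and 12 h with and without U0126 are used here, 2 arrays each.

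FGF binds receptor tyrosine kinases at the cell surface, and the signal passes through RAS and RAF to MEK, which phosphorylates and activates the kinase ERK. In the nucleus ERK and the kinases below it act on transcription factors that are already present, so that a set of immediate-early genes is transcribed within minutes without new protein. FGF receptors also feed other routes, among them PI3K and AKT, phospholipase C gamma with calcium and protein kinase C, and the stress kinases JNK and p38. U0126 blocks MEK and is not aimed at those other routes, whose activity with the inhibitor was not measured here. It is also known to bind the aryl hydrocarbon receptor (AHR).

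Values are MAS5 signals, a linear scale of brightness on which each array had been scaled by the authors to a trimmed mean of 500. A signal can be set against the same gene's signal on another array but not against another gene's. Each difference below is in log2 units on the log2(signal + 13.6) scale, so it understates the change of dim genes. A gene was called when its p-value from limma, adjusted by Benjamini-Hochberg over 14996 genes, was under 0.05. Because each 1 h group has 1 array, its spread was taken from all groups of the study, and the labels do not say whether replicates were separate cultures. No array had U0126 without FGF and none had a mock treatment of 1 h, so effects of FGF outside MEK, of U0126 itself and of handling cannot be told apart in the inhibited sample. The median signal was 78.8 on the FGF 1 h + U0126 array, 88.3 on the FGF 1 h array and 70.1 to 75 on the quiescent arrays. Of 10 fibroblast markers 0 were called in either 1 h group against quiescent cells, and the collagen gene Col1a1 read 13125 with FGF and U0126, 15420.1 with FGF alone and 14196 to 16676 in quiescent cells. The marker lists of macrophages, epithelium, endothelium, muscle and adipocytes held 5, 6, 3, 3 and 2 tested genes, of which 0 were called. Over all genes 0.113% were called for FGF 1 h + U0126 and 0.480% for FGF 1 h against quiescent cells. In such bulk samples fewer cells of a type and less RNA per cell cannot be told apart.

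With MEK inhibited, a small set of genes was higher after 1 h of FGF than in quiescent cells, and its size depended on the fit. Without the experiment number as a block it included the nuclear receptor genes Nr4a1 and Nr4a2 and the transcription factor genes Csrnp1 and Atf3. The stress genes Gadd45b and Ddit3 were also in it. That fit called 15 genes higher in FGF 1 h + U0126 than in quiescent cells, 0.100% of those tested, and 2 lower, 0.0133%. All 15 lay above each of the 3 quiescent arrays. Without quiescent replicate 2 the count was 10, of which 9 were among the 17. FGF without the inhibitor, set against the same quiescent arrays, raised 56 genes (0.373%) and lowered 16 (0.107%). The 2 comparisons share their quiescent arrays, so their values are given side by side and the difference between the 1 h samples was tested directly. With the experiment number as a block in the fit, 55 genes were called in the inhibited sample, 44 higher (0.293%) and 11 lower (0.0734%), and these included all 17 of the fit without the block. For FGF alone the block gave 236 genes (1.57%), and the fit without it gave 47 when quiescent replicate 2 was left out. Quantile normalization gave 56 higher and 27 lower genes for FGF alone.

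Nr4a1 had a difference of 3.20, close to that of Csrnp1 (3.13) and Npas4 (3.14), and the order of the 3 changed between fits. Nr4a1 belongs to the NR4A family, orphan nuclear receptors that are transcribed within minutes of many stimuli and act without a ligand. Nr4a1 had a signal of 4460.2 in FGF 1 h + U0126 cells, against 17925 in FGF 1 h cells and 271, 428 and 658 in quiescent cells 1a, 1b and 2. The inhibited sample was thus above every quiescent array and below FGF alone. Nr4a1 rose by 3.20 ± 0.38 (log2 difference ± SE, adjusted p = 0.00112), or 9.17-fold. Its difference from FGF alone was -2.00 (adjusted p = 0.0962), and with the experiment block that difference passed (adjusted p = 0.00243). Nr4a2 read 867 in FGF 1 h + U0126 cells, against 3983 in FGF 1 h cells and 186, 122 and 133 in quiescent cells. It rose against quiescent cells by 2.51 ± 0.26 (adjusted p = 0.000499), and it was lower than with FGF alone by a log2 difference of -2.18 (adjusted p = 0.00449). In the fit without the block Nr4a2 was the only gene of the 15 with both calls, an intermediate level that differed from both. With the block Nr4a1 had both calls too (3.39 against quiescent cells, adjusted p = 1.96e-06). Nr4a2 has 6 kept probe sets on the array, and the call against quiescent cells rests on the brightest one, since the other 5 gave 0.37 to 1.74 without passing. Nr4a3 showed 547 in FGF 1 h + U0126 cells, against 3685 in FGF 1 h cells and 135, 10.4 and 81.8 in quiescent cells. Its quiescent arrays were far apart, and the difference of 2.89 passed only with the block (3.02, adjusted p = 0.0234, against 0.162 without it).

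Promoters of 3 of the higher genes are shown here for the letters of the cAMP response element, the site through which CREB and ATF proteins act on NR4A genes. The stretches are the 250 bases before the RefSeq start in mouse build GRCm38.p6, read 5′ to 3′ on the gene's strand. Capitals mark the short CRE TGACG or its reverse complement CGTCA. Nr4a1 (chr15:101266596-101266845, plus strand) and Nr4a2 (chr2:57124004-57124253, minus strand) hold 4 matches each, and Npas4 (chr19:4989972-4990221, minus strand) holds 2.
Nr4a1: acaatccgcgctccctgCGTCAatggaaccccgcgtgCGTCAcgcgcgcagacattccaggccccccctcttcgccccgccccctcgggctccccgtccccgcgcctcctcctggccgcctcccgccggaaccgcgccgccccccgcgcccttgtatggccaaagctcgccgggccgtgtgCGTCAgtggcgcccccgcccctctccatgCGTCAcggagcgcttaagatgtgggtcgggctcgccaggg
Nr4a2: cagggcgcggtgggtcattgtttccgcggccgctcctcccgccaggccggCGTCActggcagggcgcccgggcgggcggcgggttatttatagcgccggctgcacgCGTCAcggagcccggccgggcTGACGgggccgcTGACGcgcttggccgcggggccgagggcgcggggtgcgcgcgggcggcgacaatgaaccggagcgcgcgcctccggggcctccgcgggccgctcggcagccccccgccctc
Npas4: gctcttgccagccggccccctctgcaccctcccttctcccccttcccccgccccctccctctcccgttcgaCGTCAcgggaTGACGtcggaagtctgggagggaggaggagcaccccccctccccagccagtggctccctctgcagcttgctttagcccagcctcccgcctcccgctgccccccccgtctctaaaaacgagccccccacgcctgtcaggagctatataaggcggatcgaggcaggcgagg
In Nr4a1 the matches begin between 233 and 40 bases before the start, and in Nr4a2 between 200 and 111. Over all 32851 promoter stretches of the same length 17.8% hold at least 1 short CRE on either strand, counted also where it lies inside a full CRE (TGACGTCA, 1.55% of promoters). The 3 genes shown are among 7 of the 14 higher genes searched that hold a short CRE. It was also held by 8 of 13 searched genes that were lower with the inhibitor than with FGF alone. These gene counts are not to be set against the share over all promoters.

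Npas4 encodes a transcription factor known mainly from neurons, where calcium entry induces it. Its signal was 154 in FGF 1 h + U0126 cells, against 93.6 in FGF 1 h cells and 15.5, 3.9 and 2.4 in quiescent cells. Both FGF samples stood above quiescent cells, whose signals lay under 45.2, the 40th percentile of all values. The gene rose by 3.14 ± 0.56 (adjusted p = 0.0492), a call lost under 10 of 14 alternatives, among them each fit without quiescent replicate 1b (2.96) or 2 (2.89). Csrnp1, a nuclear protein first known as a gene induced by AXIN1, read 883 in FGF 1 h + U0126 cells, against 592 in FGF 1 h cells and 79.3, 118 and 81.1 in quiescent cells. It rose by 3.13 ± 0.28 (adjusted p = 8.92e-05), and its difference from FGF alone was 0.56 (adjusted p = 0.826). Npas4 passed with FGF alone as well when the block was used (2.56, adjusted p = 0.025).

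Gadd45b, Ddit3 and Atf3, known from the integrated stress response and from DNA damage signalling, rose in the inhibited sample, and Gadd45b and Ddit3 were also higher than with FGF alone. Gadd45b, a small stress-induced protein that binds the kinase MEKK4 upstream of p38 and JNK, read 3879 in FGF 1 h + U0126 cells, against 1131 in FGF 1 h cells and 622, 690.1 and 578 in quiescent cells. It rose by 2.63 ± 0.18 against quiescent cells (adjusted p = 9.18e-06). It was also higher than with FGF alone, by 1.77 (adjusted p = 0.00103), and no alternative ended either call. Ddit3 encodes CHOP, a factor of the C/EBP family that is induced when ATF4 is active. Its signal was 6430 in FGF 1 h + U0126 cells, against 2367 in FGF 1 h cells and 1646, 1499 and 1412 in quiescent cells. Ddit3 rose by 2.10 ± 0.23 (adjusted p = 0.000595) and stood 1.44 above FGF alone (adjusted p = 0.0456). The call against FGF alone was lost under 5 of 9 alternatives, and a second, dimmer probe set of Ddit3 gave -0.05 for that difference. Atf3, a factor of the ATF family induced by many stresses and by growth factors, read 789 in FGF 1 h + U0126 cells, against 619 in FGF 1 h cells and 139, 139.8 and 139 in quiescent cells. It rose by 2.39 ± 0.28 (adjusted p = 0.00108), with a difference of 0.34 from FGF alone (adjusted p = 0.963). Both samples with FGF were clear of the quiescent arrays, which were nearly equal to each other.

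The promoters of Atf3 (chr1:191183334-191183583, minus strand) and Ddit3 (chr10:127290543-127290792, plus strand) are shown because both encode bZIP factors that rose in the inhibited sample and both hold a match to a bZIP site. Capitals mark the C/EBP-ATF site TGATGNAA on either strand in Atf3, the site through which ATF4 and CHOP are known to act, and the AP-1 site TGACTCA in Ddit3.
Atf3: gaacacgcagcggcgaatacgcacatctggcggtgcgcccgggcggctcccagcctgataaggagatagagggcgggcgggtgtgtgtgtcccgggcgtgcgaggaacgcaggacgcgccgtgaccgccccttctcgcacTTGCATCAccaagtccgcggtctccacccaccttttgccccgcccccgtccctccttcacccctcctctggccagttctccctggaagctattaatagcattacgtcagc
Ddit3: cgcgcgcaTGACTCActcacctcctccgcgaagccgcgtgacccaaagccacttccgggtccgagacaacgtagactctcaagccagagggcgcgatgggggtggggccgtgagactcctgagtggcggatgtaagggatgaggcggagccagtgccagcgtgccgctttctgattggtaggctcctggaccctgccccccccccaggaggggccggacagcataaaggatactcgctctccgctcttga
The C/EBP-ATF site was held by 3.45% of all promoter stretches, and 1 of the AP-1 sites TGACTCA and TGAGTCA by 4.46%. Of the 15 higher genes 14 had a promoter in the table. The short CRE was found in 7 of these, the AP-1 site in 3, the C/EBP-ATF site in 1, the EGR site GCGNGGGCG in 5 (4.70% of all promoters), the NF-kappaB site in 1 (3.90% of all promoters) and the CArG box in 0 (1.47% of all promoters). Of the 22 genes lower with the inhibitor than with FGF alone the promoters of 13 were searched. Those of Egr1, Egr3, Fosl1, Ereg and Hbegf were among the ones not searched. In the 13 the short CRE was found in 8, the full CRE in 2, the EGR site in 2 and the CArG box in 1. The AP-1, C/EBP-ATF and NF-kappaB sites were found in 0 of them. The full CRE was found in 0 of the 14. Nr4a2 is in both groups. Some of these genes have several listed starts, so these counts are not to be set against the shares over all promoters.

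Ier3, an immediate-early protein known to protect cells from death, read 7345 in FGF 1 h + U0126 cells, against 6751 in FGF 1 h cells and 894, 2063 and 1487 in quiescent cells. Ier3 rose by 2.36 ± 0.19 (adjusted p = 2.54e-05), and the 2 FGF samples differed by 0.12 (adjusted p = 0.999). Nfil3, a transcriptional repressor of the clock and of immune cells, read 1416 in FGF 1 h + U0126 cells, against 880.4 in FGF 1 h cells and 349, 359 and 422 in quiescent cells, a rise of 1.84 ± 0.29 (adjusted p = 0.0215). Bhlhe40, a repressor in the circadian loop, read 3384 in FGF 1 h + U0126 cells, against 4804 in FGF 1 h cells and 1333, 1326 and 905 in quiescent cells, a rise of 1.61 ± 0.25 (adjusted p = 0.0195). Both calls were lost without a variance trend and without quiescent replicate 2 (1.96 and 1.34), with the same direction under all 14 alternatives.

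Rgs3 ends signals from G proteins. Its signal was 2079 in FGF 1 h + U0126 cells, against 904 in FGF 1 h cells and 572, 727 and 544 in quiescent cells. Rgs3 rose by 1.79 ± 0.27 (adjusted p = 0.0169), and its difference of 1.19 from FGF alone passed only with the block (adjusted p = 0.0461, against 0.232). Without quiescent replicate 2 its difference from quiescent cells was 1.67 and did not pass. Sphk1, the kinase that makes sphingosine-1-phosphate, read 1078 in FGF 1 h + U0126 cells, against 859.8 in FGF 1 h cells and 317, 425 and 415 in quiescent cells, a rise of 1.44 ± 0.19 (adjusted p = 0.00321). Socs3, the feedback inhibitor of JAK and STAT signalling, read 3131 in FGF 1 h + U0126 cells, against 2769 in FGF 1 h cells and 1299.9, 1561 and 1374 in quiescent cells. Its rise of 1.15 ± 0.20 had an adjusted p of 0.0492 and was lost under 9 of 14 alternatives, among them the fits without quiescent replicate 1a (1.09) and without replicate 2 (1.13).

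The noncoding RNA Snhg5, which hosts small nucleolar RNAs in its introns, read 2949 in FGF 1 h + U0126 cells, against 1054 in FGF 1 h cells and 1351, 1173 and 1256 in quiescent cells. It rose by 1.22 ± 0.18 against quiescent cells (adjusted p = 0.0103) and stood 1.47 above FGF alone (adjusted p = 0.00449). FGF without the inhibitor was below all quiescent arrays for this RNA. Its other 2 probe sets were dim, with signals of 51.2 and 3.5 in the inhibited sample, and neither passed. Without quiescent replicate 2 the call against quiescent cells was lost at the same difference of 1.22. A list of 15 host genes of small nucleolar RNAs, chosen after the value of Snhg5 was seen, held no other gene called without the block, and Snhg16 of that list passed with it (1.37, adjusted p = 0.0176). The transcript 5430416N02Rik fell outside the rule for named genes and is given to complete the 15. It read 799 in FGF 1 h + U0126 cells, against 422 in FGF 1 h cells and 244, 290.0 and 337 in quiescent cells, a rise of 1.38 ± 0.21 (adjusted p = 0.0178).

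The 2 genes that were lower in FGF 1 h + U0126 than in quiescent cells were Egr1 and Wdcp. Egr1, the zinc-finger factor that is the textbook target of ERK through ternary complex factors, read 1427 in FGF 1 h + U0126 cells, against 26182 in FGF 1 h cells and 2889, 6135 and 8039 in quiescent cells. Egr1 fell by 2.02 on the log2 scale against quiescent cells (SE 0.36, adjusted p = 0.0492), while it was raised by 2.17 with FGF alone (adjusted p = 0.0101). The quiescent arrays lay far apart, and the fall was lost under 8 of 14 alternatives, among them the fits without quiescent replicate 1b (-1.75) and without replicate 2 (-1.55). Wdcp, named after its values were seen, read 3.8 in FGF 1 h + U0126 cells, against 64.7 in FGF 1 h cells and 50.8, 88.6 and 76.9 in quiescent cells. Its signals lie at the dim end of the arrays, its second probe set gave 0.55, and 7 of 14 alternatives ended the call, among them the fits without quiescent replicate 1b (-2.13) and without replicate 2 (-2.22).

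**Figure D1:**
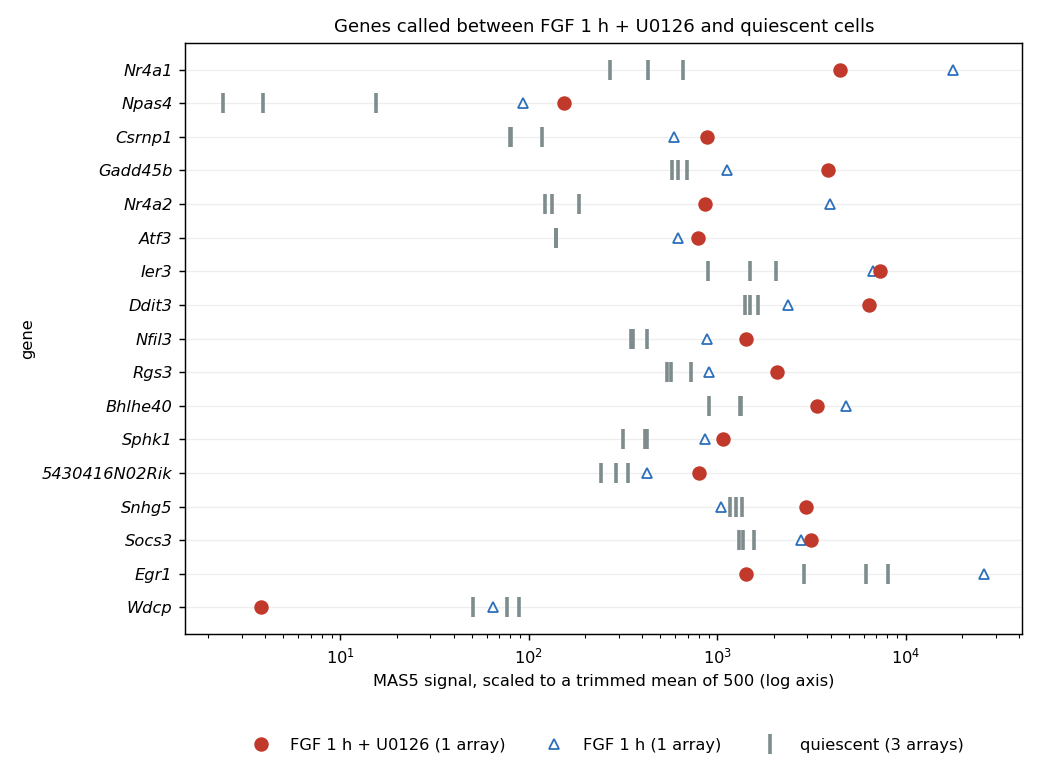
MAS5 signal on a log axis for the 17 genes called between FGF 1 h + U0126 (red circles, 1 array) and quiescent cells (grey bars, 3 arrays), with FGF 1 h (blue triangles, 1 array) beside them, ordered by the log2 difference. The red circle lies right of all grey bars for the 15 higher genes, from Nr4a1 at 4460.2 to Socs3 at 3131, and left of them for Egr1 and Wdcp.

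Immediate-early genes were then examined as lists, to see which of the genes that FGF raises within 1 h were raised with MEK inhibited. Of 27 immediate-early transcription factors 26 were tested. Against quiescent cells 6 rose in FGF 1 h + U0126 (Nr4a1, Csrnp1, Nr4a2, Atf3, Nfil3 and Bhlhe40), 1 fell (Egr1) and 19 did not pass. Over all genes 0.100% rose and 0.0133% fell. With the block Nr4a3 (3.02, adjusted p = 0.0234) and Klf2 (-1.36, adjusted p = 0.0235) passed as well. With FGF alone 15 of the 26 rose, beside 0.373% of all genes. With the block Maff (1.79, adjusted p = 0.00036), Ets2 (1.14, adjusted p = 0.0022) and Nfil3 (1.08, adjusted p = 0.04) passed with FGF alone too. The median log2 difference from quiescent cells over the list was 0.22 with the inhibitor and 1.53 with FGF alone, beside medians of 0.03 and 0.00 over all genes. Between the 2 FGF samples the list's median was -1.14, and 21 of its 26 genes read lower with the inhibitor. The inhibited sample exceeded all 3 quiescent arrays for 46.2% of the list, and FGF alone did so for 84.6%, beside 27.9% and 29.0% of all genes.

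The FOS and JUN proteins, which pair to form AP-1, did not pass in the inhibited sample. Fos read 539 in FGF 1 h + U0126 cells, against 1842 in FGF 1 h cells and 204, 565 and 1298 in quiescent cells. The quiescent arrays of Fos spread widely, and neither FGF sample passed (adjusted p = 0.966 with the inhibitor and 0.414 without). Fosl1, which encodes FRA-1, read 329.8 in FGF 1 h + U0126 cells, against 3027 in FGF 1 h cells and 276, 391.9 and 311 in quiescent cells. It lay within the quiescent range with the inhibitor (0.04 ± 0.28, adjusted p = 0.991) and rose by 3.19 with FGF alone (adjusted p = 2.16e-05). Junb likewise gave 0.21 with the inhibitor (adjusted p = 0.957) and rose by 2.19 without it (adjusted p = 0.00173). Jun read 7835 in FGF 1 h + U0126 cells, against 5019.7 in FGF 1 h cells and 3695, 5766 and 5133 in quiescent cells, a difference of 0.69 that did not pass (adjusted p = 0.476). Myc, a driver of growth and of ribosome production, gave 0.24 with the inhibitor (adjusted p = 0.952) and rose by 1.11 with FGF alone (adjusted p = 0.0133).

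Egr2 and Egr3, zinc-finger factors of the same family as Egr1, read below the quiescent arrays with the inhibitor. Egr2 read 152 in FGF 1 h + U0126 cells, against 8724 in FGF 1 h cells and 320.0, 837 and 889 in quiescent cells. Egr3 read 366 in FGF 1 h + U0126 cells, against 10408 in FGF 1 h cells and 701, 639.9 and 650.4 in quiescent cells. Both lay below every quiescent array with the inhibitor, without passing (-2.06, adjusted p = 0.397, and -0.83, adjusted p = 0.541), and both were far above them with FGF alone. These values are from the brightest probe set of each gene. A second probe set gave -0.70 for Egr2 and, at a dim signal of 58.7, 0.18 for Egr3 against quiescent cells, and neither passed. Klf2 read 762 in FGF 1 h + U0126 cells, against 2041 in FGF 1 h cells and 1043, 2065 and 2547 in quiescent cells, a difference of -1.33 (adjusted p = 0.137) that passed with the block (-1.36, adjusted p = 0.0235). Klf10 gave 0.96 with the inhibitor (adjusted p = 0.279) and rose by 1.43 with FGF alone (adjusted p = 0.00716), a call lost without quiescent replicate 1b (1.24) or 2 (1.33). One of the listed starts of Egr2 (chr10:67537316-67537565, plus strand) is shown for its CArG box, the site of serum response factor, in capitals.
Egr2: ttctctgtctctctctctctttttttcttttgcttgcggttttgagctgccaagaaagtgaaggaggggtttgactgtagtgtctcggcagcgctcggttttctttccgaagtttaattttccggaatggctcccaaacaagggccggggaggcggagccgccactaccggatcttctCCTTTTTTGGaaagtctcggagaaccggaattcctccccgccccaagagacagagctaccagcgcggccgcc
A CArG box lies in 4 of the 5 listed Egr2 promoter stretches, which overlap each other in part, and in 1.47% of all promoter stretches. The other 3 of these 4 also hold 2 short CREs each, and the stretch shown, the first listed one with the box, holds 0. No other of the 13 lower genes searched holds a CArG box, and Egr1 and Egr3 were not among those searched.

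Of 28 other immediate-early genes 26 were tested, of which Ier3 rose and 25 did not pass in FGF 1 h + U0126 against quiescent cells. Over all genes 0.100% rose in that comparison and 0.373% rose with FGF alone. With FGF alone 12 rose, and with the block Mcl1 (0.79, adjusted p = 0.008), Zfp36l1 (0.85, adjusted p = 0.016) and Zfp36l2 (0.86, adjusted p = 0.0013) passed too. The list's median was 0.33 with the inhibitor and 1.00 without. Ccn1, a matrix protein, read 4324 in FGF 1 h + U0126 cells, against 12527 in FGF 1 h cells and 347, 1059 and 1559.5 in quiescent cells. Its difference of 2.13 ± 0.41 missed the threshold (adjusted p = 0.0729) and passed with the block (2.24, adjusted p = 0.00572). Ptgs2, which encodes cyclooxygenase 2, read 5194 in FGF 1 h + U0126 cells, against 14995 in FGF 1 h cells and 1681, 2466 and 2207 in quiescent cells. It too passed only with the block (1.21, adjusted p = 0.024, against 1.29 and 0.129 without it). Dusp1, a phosphatase of p38, JNK and ERK, was higher with the inhibitor than in any other 1 h or quiescent sample, at 23347 in FGF 1 h + U0126 cells, against 14531 in FGF 1 h cells and 12541, 14924 and 14584 in quiescent cells. Its difference of 0.72 passed with the block (0.73, adjusted p = 0.024, against 0.129 without it). Zfp36 (0.97, adjusted p = 0.03), Trib1 (1.01, adjusted p = 0.0349), Tob1 (0.81, adjusted p = 0.024) and Phlda1 (0.80, adjusted p = 0.03) also passed against quiescent cells with the block alone. The serum-induced kinase gene Sgk1 and the EGFR inhibitor gene Errfi1 were not above quiescent cells with the inhibitor (-0.37 and -0.28, neither passing), and both rose with FGF alone (1.42 and 3.41).

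**Figure D2:**
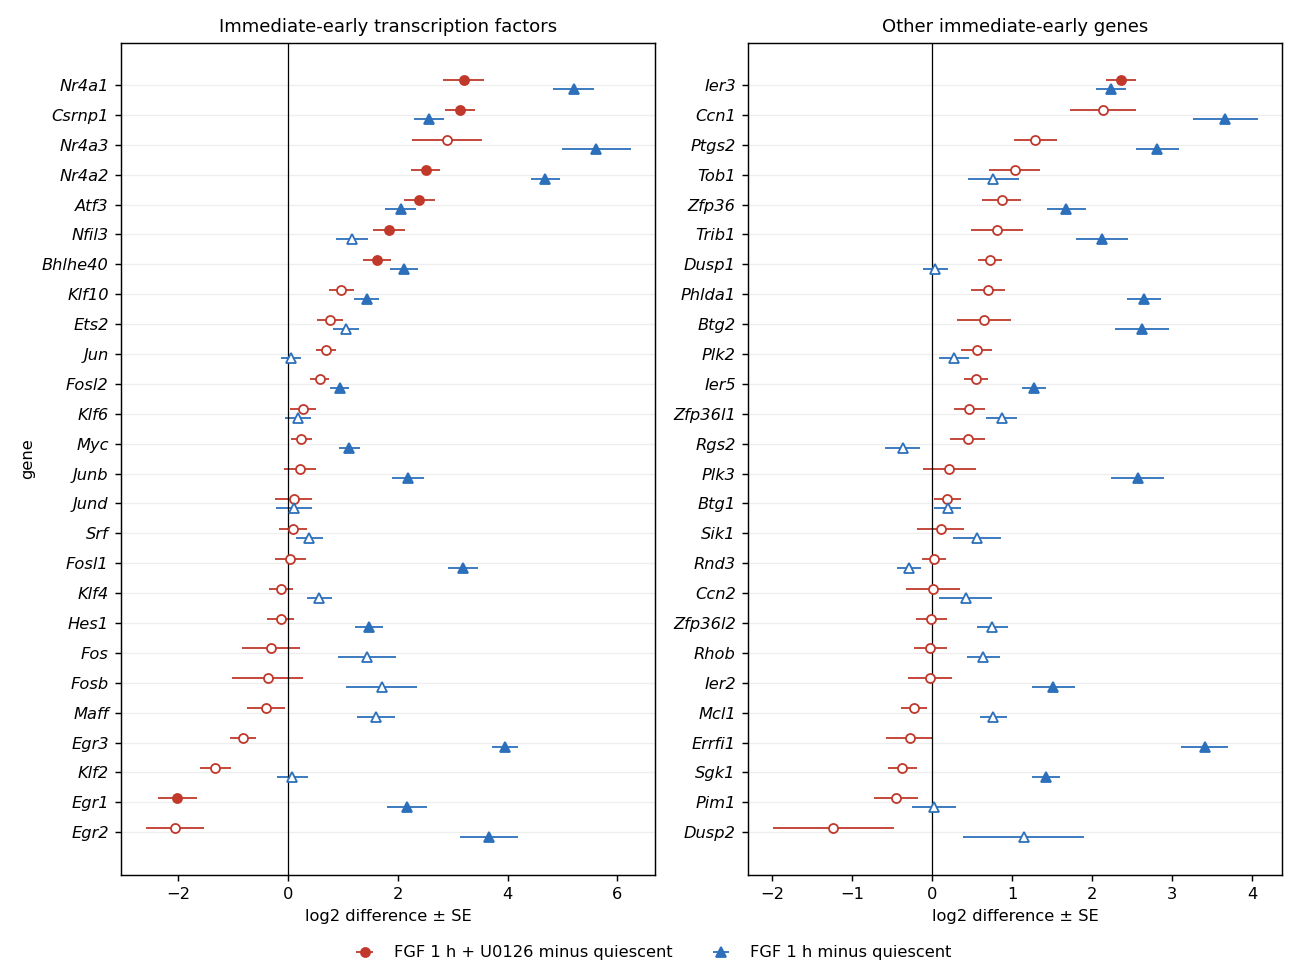
Log2 difference from quiescent cells (± SE, on the log2(signal + 13.6) scale) of 26 immediate-early transcription factors (left) and 26 other immediate-early genes (right), for FGF 1 h + U0126 (red circles) and FGF 1 h (blue triangles), with filled marks where the adjusted p was under 0.05. The red marks of Nr4a1, Csrnp1, Nr4a2, Atf3, Nfil3, Bhlhe40 and Ier3 are filled and right of 0, and that of Egr1 is filled and left of it.

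The direct comparison of the 2 FGF samples, 1 array against 1, gave the genes whose level differed with the inhibitor. In FGF 1 h + U0126 against FGF 1 h 22 genes were lower (0.147% of those tested) and 5 were higher (0.0333%). With the experiment block 66 were lower (0.440%) and 92 were higher (0.613%), so the share of higher genes depends on the fit. Quantile normalization gave 25 lower and 10 higher genes. Among the named genes the block added 16 lower ones, with differences of -3.43 to -0.72: Btg2, Dusp4, Dusp5, Etv5, Ier2, Ier5, Klf2, Maff, Mcl1, Myc, Nr4a1, Plaur, Ptgs2, Trib1, Wdcp and Zfp36l2. It also added 3 higher ones, Dusp1 (0.68), Rgs2 (0.81) and Rgs3 (1.19). The lower genes were led by Egr2 (-5.72, adjusted p = 0.000361), Egr3 (-4.78, adjusted p = 4.54e-07) and Egr1 (-4.19, adjusted p = 0.000181). Next came Errfi1 (-3.69), Fosl1 (-3.15), the transcript C920021L13Rik (-3.09), Dusp6 (-3.00) and Ereg (-2.68). C920021L13Rik was also lower than in quiescent cells with the block (-2.40, adjusted p = 0.033). Of the 22 lower genes, 10 lay below all 3 quiescent arrays in the inhibited sample, 9 lay within their range and 3 lay above them. Over all genes 21.5% lay below all 3 and 27.9% above. The 22 were chosen for a low value on this same array, so low positions are favoured by that choice. Further lower genes included Plk3, Hbegf, Junb, Phlda1, Sgk1 and the deadenylase-related clock gene Noct. They also included the EGR corepressor gene Nab2, the SMAD corepressor gene Tgif1, Hes1 and Dnajb1. Nab2 read 1327 in FGF 1 h + U0126 cells, against 4473 in FGF 1 h cells and 1129.5, 1359.5 and 1729 in quiescent cells, within the quiescent range with the inhibitor.

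The 5 genes higher with the inhibitor than with FGF alone were Zfp94, Gadd45g, Gadd45b, Snhg5 and Ddit3. Gadd45g, a relative of Gadd45b, read 752 in FGF 1 h + U0126 cells, against 162 in FGF 1 h cells and 316, 376 and 349 in quiescent cells. It stood 2.12 above FGF alone (adjusted p = 0.00534) and 1.09 above quiescent cells, which did not pass (adjusted p = 0.314). FGF alone lay below all quiescent arrays for Gadd45g, and the inhibited sample lay above them. Zfp94, a zinc-finger gene, read 128 in FGF 1 h + U0126 cells, against 7.0 in FGF 1 h cells and 101, 63.8 and 92.3 in quiescent cells. Its call (2.78, adjusted p = 0.020) thus rests on the dim FGF 1 h array. Of the 15 genes above quiescent cells with the inhibitor, 3 were higher than with FGF alone (Gadd45b, Ddit3 and Snhg5). Nr4a2 was lower, and 11 did not pass in this comparison without the block. Over all genes 0.0333% were called higher and 0.147% lower. The 15 were chosen for a high value on the inhibited array, which this comparison uses again, so calls of higher genes among them are favoured by that choice. Between FGF alone and quiescent cells Gadd45g passed with the block (-1.08, adjusted p = 0.038).

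**Figure D3:**
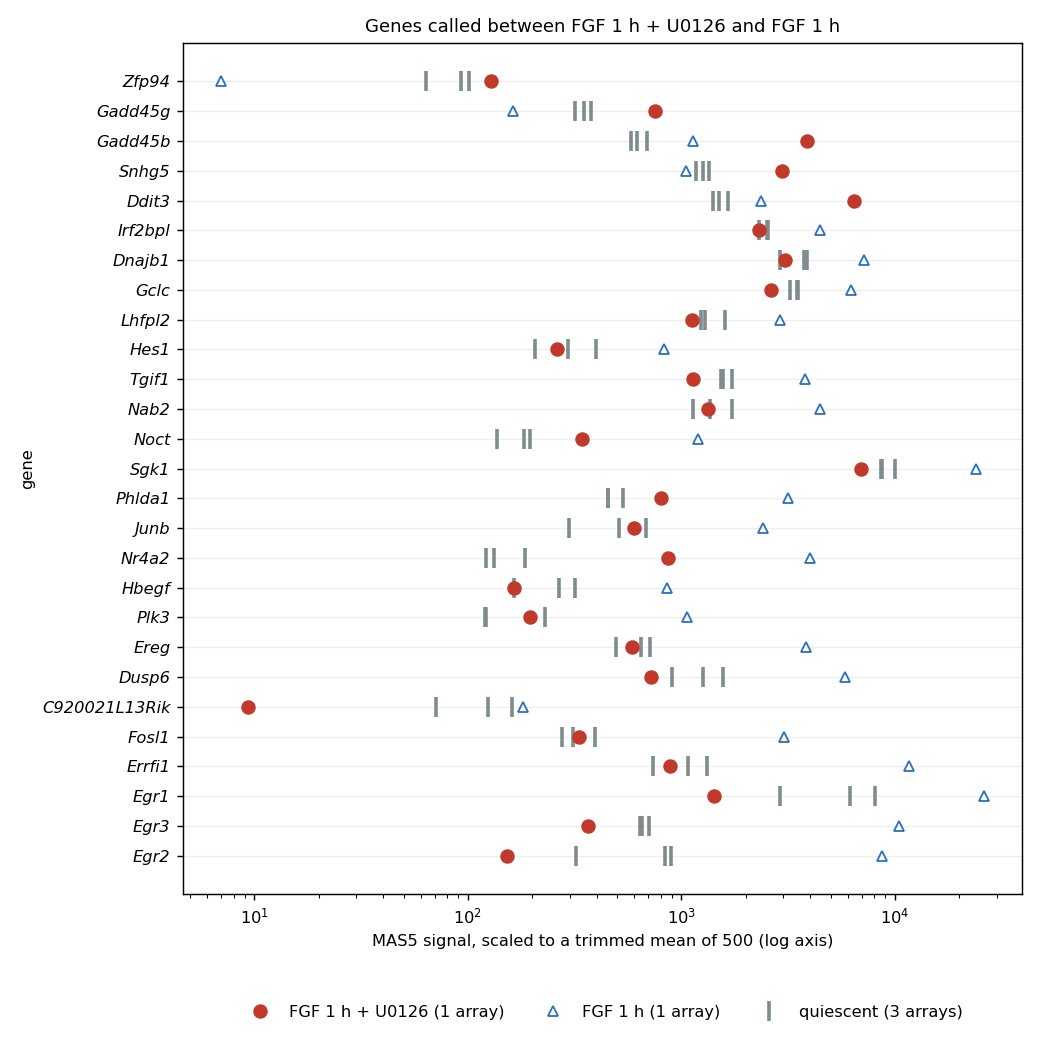
MAS5 signal on a log axis for the 27 genes called between FGF 1 h + U0126 (red circles, 1 array) and FGF 1 h (blue triangles, 1 array), with the 3 quiescent arrays as grey bars, ordered by the log2 difference. The red circle lies right of the triangle for the 5 genes at the top and left of it for the other 22, where it lies among or below the grey bars for all but 3 (Nr4a2, Phlda1 and Noct).

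Genes that damp or extend ERK signalling served as the check of the inhibitor. Of 21 listed genes 17 were tested, and 0 passed against quiescent cells with U0126 in the limma fit. It called 0.113% of all genes there, so a list of 17 would seldom hold a call and the 0 is not read as a result. In that fit 769 of all 14996 genes had an unadjusted p under 0.05, near the share that this threshold alone would give. With FGF alone 3 of the 17 rose (Dusp6, Ereg and Hbegf), and these 3 were lower with the inhibitor than without it. Over all genes 0.373% rose with FGF alone and 0.147% were lower with the inhibitor than without it. With the block the ERK phosphatase genes Dusp4 (1.58, adjusted p = 0.0083) and Dusp5 (3.52, adjusted p = 0.0034) also rose with FGF alone. The list's median was -0.29 with the inhibitor and 0.73 without. Dusp6, the phosphatase that removes the activating phosphates of ERK, read 719 in FGF 1 h + U0126 cells, against 5826 in FGF 1 h cells and 907, 1263 and 1559.5 in quiescent cells. The inhibited sample was below each quiescent array, though the difference of -0.83 did not pass (adjusted p = 0.279). Ereg, an EGF receptor ligand, read 589 in FGF 1 h + U0126 cells, against 3836 in FGF 1 h cells and 711, 491 and 646 in quiescent cells, within the quiescent range. Etv5, an ETS factor induced by FGF in many tissues, read 186 in FGF 1 h + U0126 cells, against 532 in FGF 1 h cells and 509, 414 and 545 in quiescent cells. Its difference of -1.36 from quiescent cells had an adjusted p of 0.0691 and passed with the block (adjusted p = 0.015). The Sprouty and Spred genes, inhibitors of RAS and RAF activation, did not pass in either FGF sample, with differences of -0.51 (Spred2) to 0.19 (Spry4) with the inhibitor.

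The stress list held calls with the inhibitor. It was chosen with earlier results of these data known, so its calls are no independent sign of a stress response. Of 16 tested genes of 17, Gadd45b and Ddit3 rose with FGF and U0126, and 1 gene, Dnajb1, rose with FGF alone in the fit without the block. Over all genes that fit called 0.100% higher with FGF and U0126 and 0.373% higher with FGF alone. With the block Gadd45b also rose with FGF alone (0.89, adjusted p = 0.0082, against 0.0599 without it). The median was 0.34 with the inhibitor and 0.23 without. Atf4, whose product drives Ddit3, read 15507 in FGF 1 h + U0126 cells, against 9484 in FGF 1 h cells and 7347, 9934 and 9791 in quiescent cells. Its difference of 0.76 passed only with the block (0.82, adjusted p = 0.00832, against 0.137). Other targets of the same route gave 1.08 (Chac1), 0.11 (Trib3) and 0.18 (Ppp1r15a) without passing, and Chac1 passed with the block (1.28, adjusted p = 0.0235). The heat-shock cochaperone gene Dnajb1 gave -0.21 with the inhibitor (adjusted p = 0.953) and rose by 1.00 with FGF alone (adjusted p = 0.0199), a call lost without quiescent replicate 2 (1.09).

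**Figure D4:**
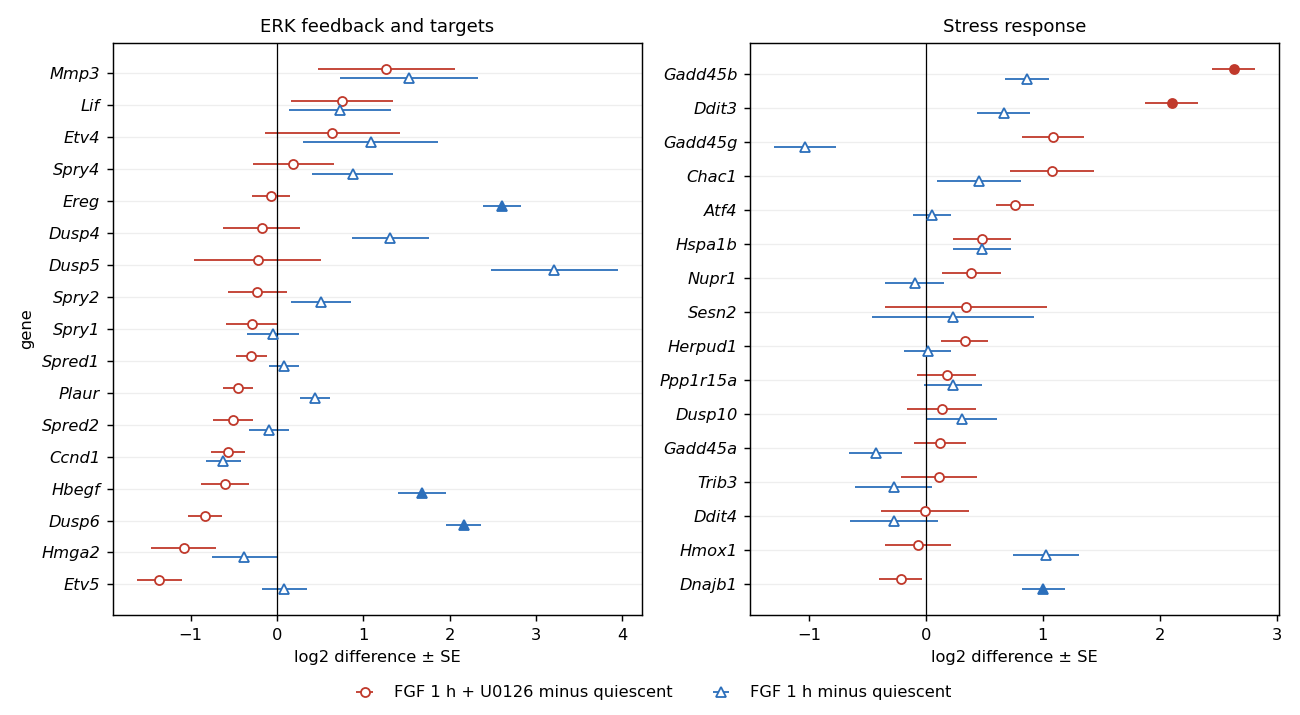
Log2 difference from quiescent cells (± SE) of 17 ERK feedback and target genes (left) and 16 stress genes (right), for FGF 1 h + U0126 (red circles) and FGF 1 h (blue triangles), with filled marks where the adjusted p was under 0.05. Red marks are filled for Gadd45b and Ddit3 on the right and for no gene on the left, where Ereg, Dusp6 and Hbegf have filled triangles.

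Genes known as targets of cAMP and CREB, of NF-kappaB and of cytokines and STAT, and genes of the clock, were examined as lists. Which route acts on them in these cells was not tested. Against quiescent cells 0.100% of all genes rose with the inhibitor in the fit without the block. Among 13 tested targets of cAMP and CREB 3 rose (Nr4a1, Nr4a2 and Nfil3), with a median of 0.61 with the inhibitor and 0.66 with FGF alone, and these 3 genes were already counted above. With the block Nr4a3 and Dusp1 of this list passed too. Among 16 targets of NF-kappaB 0 passed against quiescent cells in the fit without the block. Their median was 0.71 with the inhibitor and 0.54 with FGF alone, and 10 of the 16 lay above all quiescent arrays in the inhibited sample, beside 4191 of all 14996 genes. The chemokine gene Cxcl1 read 2692 in FGF 1 h + U0126 cells, against 1738 in FGF 1 h cells and 483, 769.5 and 573.5 in quiescent cells. Its difference of 2.16 ± 0.40 had an adjusted p of 0.0599 and passed with the block (2.37, adjusted p = 0.000283). The block also brought in the chemokine gene Ccl7 (1.65, adjusted p = 0.00257), the inhibitor gene Nfkbia (0.87, adjusted p = 0.0108) and its nuclear relative Nfkbiz (1.12, adjusted p = 0.015). Ccl7 read 3282 in FGF 1 h + U0126 cells, against 3036 in FGF 1 h cells and 891, 1338 and 1373 in quiescent cells, so that both FGF samples were higher than every quiescent array. Among 12 cytokine and STAT genes Socs3 alone rose, which with the block also passed with FGF alone (0.94, adjusted p = 0.011), and among 17 clock genes Bhlhe40 and Nfil3 rose.

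Genes of AHR were examined because U0126 can bind this receptor. Of 7 tested genes of 9, 0 passed against quiescent cells with the inhibitor, where 0.113% of all genes passed. So short a list would seldom hold a call, and an effect of U0126 through AHR was not tested. Cyp1a1, the defining target, read 6.7 in FGF 1 h + U0126 cells, against 32.2 in FGF 1 h cells and 14.8, 23.4 and 33.5 in quiescent cells, all at the dim end of the arrays. Cyp1b1 gave -0.35 (adjusted p = 0.945), and Tiparp, which rose by 1.05 with FGF alone (adjusted p = 0.0068, and 0.98 without passing when quiescent replicate 2 was left out), gave 0.39 with the inhibitor (adjusted p = 0.945). Transcripts of the cascade itself gave no call. In the list from FGF receptors to ERK 18 genes were tested and 0 were called in any of the comparisons at 1 h. Over all genes 0.113% were called for FGF 1 h + U0126 and 0.480% for FGF 1 h against quiescent cells, and 0.180% between these 2 samples. Fgfr1 was at -0.36 and the MEK genes Map2k1 and Map2k2 at -0.04 and -0.31 in the inhibited sample against quiescent cells. Some members of this list were not analysed here.

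Genes of quiescence and of the later growth programme gave no calls at 1 h with the inhibitor in the fit without the block. That fit called 0.113% of all genes against quiescent cells. Of 23 FOXO targets and quiescence genes 0 passed, with a median of -0.24 with the inhibitor and -0.41 with FGF alone. Txnip, a glucose-sensitive inhibitor of thioredoxin, read 2573 in FGF 1 h + U0126 cells, against 1735 in FGF 1 h cells and 6941, 6131 and 3612 in quiescent cells, and passed with the block (-1.34, adjusted p = 0.0196). Of 16 genes of cholesterol synthesis 13 lay above all quiescent arrays in the inhibited sample, with a median of 0.48 and no call, where 27.9% of all genes lay above them. The 25 genes of ribosome biogenesis had a median of -0.09 and the 22 genes of the G1/S transition one of -0.04, against 0.09 and -0.07 with FGF alone. The actin and SRF targets (21 genes, median -0.19) and p53 targets (12 genes, median -0.27) held no call in the inhibited sample either. The same was true of the YAP, growth factor, SMAD, Notch and WNT, interferon and reference lists, whose medians lay between -0.27 and 0.16, except that Ccn1, also a YAP target, passed with the block (2.24, adjusted p = 0.00572).

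Later arrays with U0126 give the course of these levels. In FGF 4 h + U0126 against FGF 1 h + U0126 242 genes were higher (1.61% of those tested) and 250 were lower (1.67%), and the block gave 1529 (10.2%). Without replicate 2 at 4 h the count was 214. Scaling each array to the 75th percentile gave 264 higher and 170 lower genes. This comparison shares the FGF 1 h + U0126 array with those above. Genes called for a high level on that array would tend to read lower on other arrays, and genes called for a low level higher. Falls of the former and rises of the latter are thus favoured by their choice, which the adjusted p-values do not take into account. Csrnp1 fell by 1.82 (adjusted p = 0.00255), Gadd45b by 1.39 (adjusted p = 0.00094), Socs3 by 1.65 (adjusted p = 0.000644), Bhlhe40 by 1.29 (adjusted p = 0.0117) and Ier3 by 1.04 (adjusted p = 0.00649). Atf3 went the other way, with 2499.7 and 1767 at 4 h with U0126 and 789 at 1 h, a rise of 1.40 (adjusted p = 0.0121). Nfil3 read 3949 and 2877 at 4 h with U0126 and 1416 at 1 h, a rise of 1.24 (adjusted p = 0.0341). Without replicate 1 at 4 h the calls of Atf3 (1.15), Nfil3 (1.02) and Bhlhe40 (-1.08) were lost. Atf3 and Nfil3 with FGF alone were at 99.3 and 122, and at 642 and 399, by 4 h.

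For the NR4A genes the later levels are given beside those of FGF alone without a test. Nr4a1 with U0126 read 3638 and 4629.7 at 4 h, 2085 and 2944 at 7 h and 1012 and 1841 at 12 h. With FGF alone it read 935 and 1088 at 4 h, 312.5 and 392.2 at 7 h and 243 and 174 at 12 h, so that the inhibited cells, lower at 1 h, were higher at each later time. Between 4 h and 1 h with U0126 the difference was -0.12 for Nr4a1 (adjusted p = 0.917) and -0.04 for Nr4a2 (adjusted p = 0.965). Nr4a3 with U0126 read 2096 and 3266 at 4 h and 547 at 1 h, a difference of 2.23 (adjusted p = 0.0733) that passed with the block (2.11, adjusted p = 0.026). Ddit3 with U0126 read 10538 and 8114 at 4 h and 2617 and 3872 at 12 h, against 1000.0 and 1047 at 4 h and 468 and 462 at 12 h with FGF alone. Npas4 with U0126 stayed between 101 and 247 over 4, 7 and 12 h, against 2.3 to 16.3 with FGF alone.

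With the block 18 more of the named genes passed between 1 and 4 h with U0126. Those higher at 4 h were Fgfr4, Hmga2, Maff, Nqo1, Nr4a3, Ptgs2 and Sphk1, with 0.64 to 2.11, and those lower were Ccn1, Ccnd1, Cyp1b1, Egr3, Ier5, Junb, Klf6, Snhg5, Tob1, Zfp36 and Zfp36l2, with -1.39 to -0.52.

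Other genes that had not passed at 1 h rose between 1 and 4 h. Trib3 rose by 2.25 between 1 and 4 h with U0126 (adjusted p = 0.00178), Gadd45a by 1.22 (adjusted p = 0.00794) and Chac1 by 1.62 (adjusted p = 0.0244). Fosl1, which was not raised at 1 h with the inhibitor, read 1619 and 1706 at 4 h with it, a rise of 2.29 (adjusted p = 0.000594), against 4251 and 3357.5 with FGF alone. Hbegf rose by 2.12 (adjusted p = 0.00086) and Plaur by 1.61 (adjusted p = 0.00027) over the same interval. Dusp4 rose by 1.85 (adjusted p = 0.0363) and Dusp6 by 0.85 (adjusted p = 0.0323), calls lost under 4 and 5 of 12 alternatives. Dusp6 then read 1320 and 1292 with U0126, within the quiescent range, against 9314 and 8316 with FGF alone. Fosl1, Hbegf and Dusp6 had been called low on the inhibited 1 h array against FGF alone, which favours their rises. Egr1 fell further, by 2.22 (adjusted p = 0.00332), with 344 and 254 at 4 h with U0126, against 3059 and 4648 with FGF alone.

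**Figure D5:**
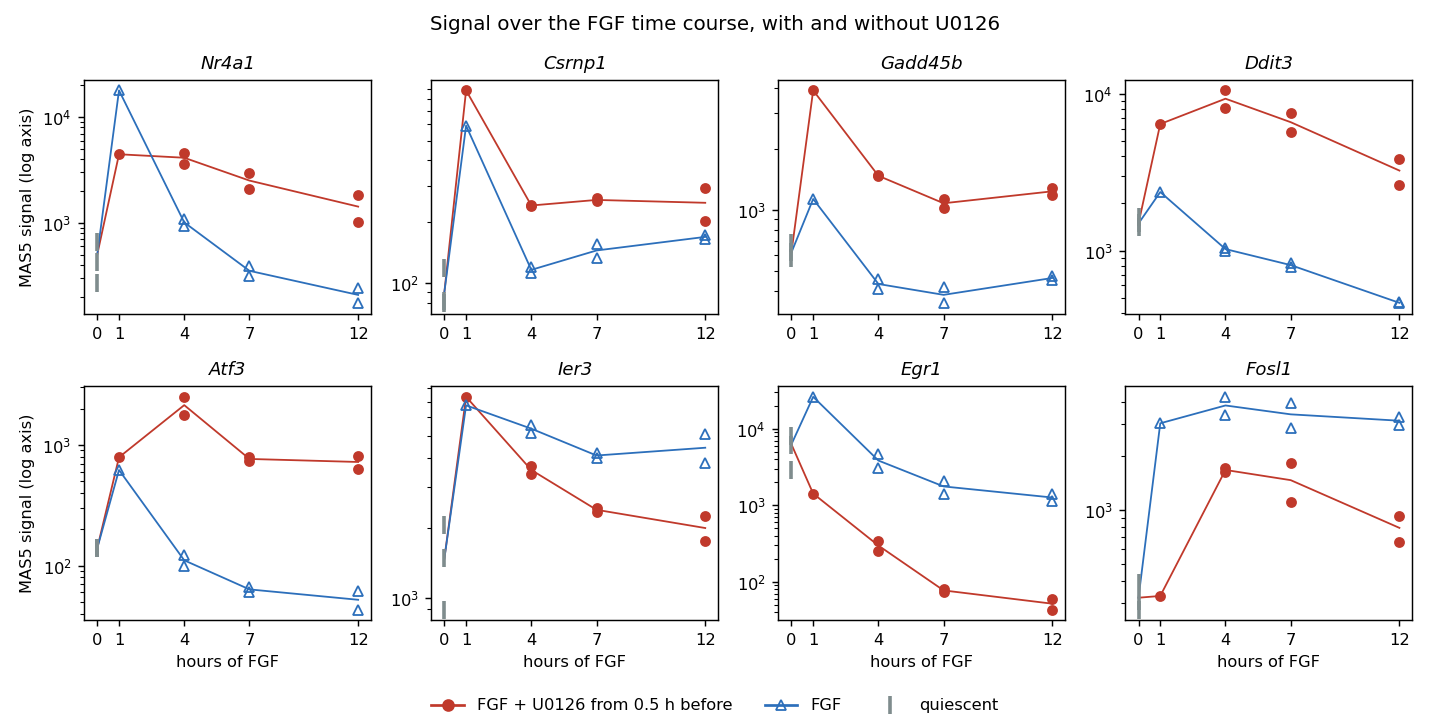
MAS5 signal on a log axis against hours of FGF for 8 genes, with U0126 from 0.5 h before FGF (red circles) and without it (blue triangles), 1 array each at 1 h and 2 at 4, 7 and 12 h, lines through the means and quiescent arrays as grey bars at 0 h. Nr4a1, Csrnp1, Gadd45b, Ddit3 and Atf3 lie higher with U0126 from 4 h on, while Ier3, Egr1 and Fosl1 lie lower.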

How the data were processed

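Gene expression in NIH3T3 cells was measured on Affymetrix arrays. The deposited values are intensities, MAS5 signals that the authors scaled to a trimmed mean of 500 per array, per the labels' protocols; trimming 2% from each end gave 500 on every array here. For MAS5 no version was given in the sources used here. Among the 45101 probe sets, 34945 had 1 gene symbol, 932 several and 9160 none in the platform annotation. A probe set was kept if 2 or more arrays had it brighter than their own 40th percentile, and the brightest per gene was used, which left 14996 genes. The 20th percentile of all values, 13.6, was added before log2. Quiescent arrays 1a and 1b, both of experiment 1, were averaged first. limma 3.58.1 in R 4.3.3 was fitted to 18 columns in 11 groups with a variance trend (7 residual degrees of freedom), with Benjamini-Hochberg adjustment over all genes. It was tested on simulated data. Figures and promoter searches used Python 3.11.15 with pandas 2.3.3, numpy 2.4.6 and matplotlib 3.10.9.

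Groups sharing an experiment number deviated together. Over 21 pairs of groups the correlation of deviations was 0.127 to 0.305, so the numbers pair the samples. The counts and calls given first leave this pairing out, so a gene that did not pass in them may pass with the block. The fit with the experiment number as a block is given for the named genes whose call it changes. Precision is limited by the number of arrays.

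Genes were named as follows: the 12 largest called differences each way from quiescent cells and the 8 largest from FGF 1 h, where the brighter group read over 74.0, the median signal, up to 4 called genes of each list, and genes of the immediate-early, ERK feedback, AHR and cascade lists whether called or not. Genes named only because they passed with the block, and other members of the stress, FOXO and NF-kappaB lists without a call, were chosen after their values were seen. The comparison and all lists were chosen with earlier results of these data known. Of 412 listed genes 362 were tested, 25 fell under the filter and 25 were not analysed here. Alternatives changed the scaling, offset, filter, variance trend, probe set, block, samples in the fit and replicates.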

Additional observations from a re-analysis of the deposited data

How the results depend on the processing

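With 1 array in each 1 h group, every call rests on the spread of the other groups. In FGF 1 h + U0126 against quiescent cells (17 genes), the count was 10 without a variance trend and 55 with the replicate block, and 10 to 23 when 1 quiescent array was left out (10 without replicate 2). Against FGF 1 h (27 genes) the replicate block gave 158. For FGF 1 h against quiescent cells (72 genes) the count was 42 without a variance trend, 236 with the block, and 47 to 95 with 1 quiescent array left out (47 without replicate 2). For FGF 4 h + U0126 against FGF 1 h + U0126 (492 genes) it was 161 without a variance trend, 745 over all probe sets, 1529 with the block, 141 with only the compared groups, and 214 to 359 with 1 array left out at 4 h (214 without replicate 2). The cause of these shifts was not tested. Only Snhg5 reversed, with its probe set of highest variance, which is dim (-0.79 against quiescent cells and -0.17 against FGF 1 h). Against quiescent cells the calls of Atf3, Csrnp1, Ddit3, Gadd45b, Ier3, Nr4a2 and Sphk1 held under all 14 alternatives run, and Nr4a1 was lost without a variance trend alone. A fit to the compared groups only was not run for FGF 1 h + U0126 against FGF 1 h, which leaves no residual degrees of freedom. With the replicate block 11, 19, 12 and 18 of the 116 named genes gained a call in these 4 comparisons, in the order given, and 0 lost one.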

Other observations

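Probe sets without a single gene symbol were tested beside the named ones in FGF 1 h + U0126 against quiescent cells. Of 6622 such probe sets limma called 0 after adjustment over 34537 probe sets, and 323 had an unadjusted p under 0.05.

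Uroc1, an enzyme of histidine breakdown known from liver, had the largest difference of any gene tested without passing. Its signal was 404 in FGF 1 h + U0126 cells, against 287 in FGF 1 h cells and 20.6, 28.8 and 38.2 in quiescent cells. The log2 difference from quiescent cells was 3.23 (limma, adjusted p = 0.162), and it passed with the experiment block (3.29, adjusted p = 0.0349). Other genes that passed with the block alone, chosen after their values were seen, were the noncoding RNA Snhg16 (1.37, adjusted p = 0.0176), the kinase gene Map3k8 (1.32, adjusted p = 0.0326) and the interferon-related regulator Ifrd1 (1.14, adjusted p = 0.00832). In all 38 genes passed only with the block, 29 higher and 9 lower.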
